A study of Mus musculus with 39 samples.

Results

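Leptin was compared with saline over all 39 libraries of the series, 19 from mice given leptin and 20 from mice given saline. The samples were whole duodenum, with all its cells, of male wild-type C57BL/6 mice aged 8 weeks, and total RNA was sequenced in bulk. Every mouse carried a cannula in a lateral brain ventricle, placed 3 days before, and was deprived of food for 2 h. For 48 h the mice drank either plain water or the same water containing 1 g/L ampicillin plus 0.5 g/L neomycin. The injection into the ventricle was leptin (3 µg) or saline, and the duodenum was taken 2 h later. The Leptin-water group held 13 libraries, Leptin-antibiotic 6, Saline-water 14 and Saline-antibiotic 6. Library names in the labels start with M or with MT, and these starts are used as sets M and MT. Set M on water held 7 leptin and 8 saline libraries, set MT on water 6 of each, and set MT on antibiotic 6 of each. These 3 blocks share no library, so each gives its own leptin effect. In set M the library names run in order of injection, and the order and the injection cannot be told apart there. In set MT the names of the groups are mixed. Whether each library came from its own animal is not stated, so the p-values measure the spread between these libraries, which may be technical.

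Leptin is a hormone of fat cells that acts on hypothalamic neurons, and from there on food intake and on the nerves and glands that reach the gut. The small intestine is tuned by glucocorticoids of the adrenal gland, which bind a nuclear receptor and switch on genes such as Per1, Tsc22d3 and Sgk1, and by a circadian clock. In the clock, CLOCK and BMAL1 bind the E-box and drive the Per and Cry repressors and output factors such as Hlf, Tef and Ciart. Secretory cells also use the unfolded protein response, in which chaperones such as Hspa5 are induced when proteins fold poorly in the endoplasmic reticulum.

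Over the 3 blocks, 362 genes were higher and 130 lower after leptin than after saline, at an adjusted p of 0.05 in the quasi-likelihood F test of edgeR with block as a term. These were 2.21% and 0.795% of the 16358 genes tested, and 3.01% together. Most changes were small, with a median log2 fold change of 0.22 for the higher genes (1.17-fold) and −0.21 for the lower genes, beside −0.01 over all genes. A fold of 1.5 was passed by 37 higher and 10 lower genes, and a fold of 2 by 8 and 2. At an unadjusted p under 0.05, 1503 genes were higher (9.19%) and 1295 lower (7.92%), the shares beside which counts of that kind are read. Members of the glucocorticoid response, clock output factors and endoplasmic reticulum chaperones were among the higher genes, and immediate early genes were among the lower. Without the 6 libraries highest in exocrine pancreas RNA, described next, 201 genes were higher and 94 lower. Of the main calls, 161 and 54 were among these.

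Library totals ranged from 30207536 to 67870777 counts (median 48282125), and residual ribosomal RNA, read from Rn45s, took 2.87% to 13.3% of a library. The mean of the duodenal enterocyte markers was 8.32 to 9.22 on the scale of log2 CPM over all libraries. CPM is the reads of a gene scaled to the size of its library, after TMM normalisation. The series held no other gut region, so these values do not test the duodenal label. Neighbouring tissue varied. The exocrine pancreas list passed a mean of 4 log2 CPM in Saline-antibiotic 1, 2 and 5, Leptin-antibiotic 3 and Leptin-water 6 and 10, the 6 libraries left out where pancreas RNA is named. A further 6 libraries lay between 1.85 and 3.46 and were kept. The saline range of that list was −1.42 to 6.00 and the leptin range −1.26 to 6.13. The stomach and Brunner gland list ranged from 4.22 to 7.82 with saline and from 2.69 to 8.19 with leptin. The smooth muscle list ranged from 6.29 to 7.25 with saline and from 5.82 to 7.40 with leptin. The liver list differed by set, with means of 5.97 (saline) and 5.24 (leptin) in set M, 0.63 and 0.75 in set MT on water and 1.37 and 0.73 on antibiotic. Its median log2 fold changes in these blocks were −0.92, 0.05 and −1.42. On antibiotic the list mean per library ranged widely with saline, from 0.50 to 4.36, and from 0.51 to 1.01 with leptin. No member of these 4 lists was called in the average effect by edgeR, DESeq2 or limma-voom. The count at an unadjusted p under 0.05 by edgeR was 0 for exocrine pancreas, smooth muscle and stomach and Brunner gland, and 4 for liver, all lower. With the means of the pancreas, Brunner gland and muscle lists as covariates, the liver genes Ahsg, Alb and Serpina1a passed (adjusted p = 0.011, 0.027 and 0.0334), all lower. That fit was not repeated without single libraries. In a bulk sample, fewer cells of a type and less RNA per cell cannot be told apart.

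A pair of saline libraries stood close to the leptin libraries in many of the genes described below. Among 18 higher genes shown by library, Saline-water 10 was the highest saline library of its block in 14, and in 9 of these it lay above the median of the leptin libraries of that block. Saline-water 5 was the highest of its block in 12, and above the leptin median in 9. Saline-antibiotic 6 was also the highest of its block in 12, but above the leptin median in 2. All were kept under their labels. Leaving out Saline-water 10 gave 503 higher and 239 lower genes, and leaving out Saline-water 5 gave 407 and 171.

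The starts of 4 of the higher genes are shown because they carry motifs of the factors named above. Each is a RefSeq promoter window of 300 bases, in mouse build GRCm38.p6, read 5′ to 3′ on the strand of the gene and reaching from 250 bases before the start of a transcript to 50 bases after it. Capitals mark an E-box (CACGTG), a glucocorticoid response element (AGAACA and TGTTCT with any 3 bases between) or an endoplasmic reticulum stress element (CCAAT and CCACG with any 9 bases between), sought on both strands. The windows are Per1 at chr11:69098699-69098998 (plus strand), Ciart at chr3:95882179-95882478 (minus), Sgk1 at chr10:21993640-21993939 (plus) and Hspa5 at chr2:34771840-34772139 (plus).
Per1: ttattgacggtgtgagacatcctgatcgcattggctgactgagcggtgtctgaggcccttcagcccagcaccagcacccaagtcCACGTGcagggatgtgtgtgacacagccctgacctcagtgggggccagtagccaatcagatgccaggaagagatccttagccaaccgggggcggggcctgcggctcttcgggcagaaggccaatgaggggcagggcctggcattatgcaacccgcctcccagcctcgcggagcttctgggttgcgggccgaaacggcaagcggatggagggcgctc
Ciart: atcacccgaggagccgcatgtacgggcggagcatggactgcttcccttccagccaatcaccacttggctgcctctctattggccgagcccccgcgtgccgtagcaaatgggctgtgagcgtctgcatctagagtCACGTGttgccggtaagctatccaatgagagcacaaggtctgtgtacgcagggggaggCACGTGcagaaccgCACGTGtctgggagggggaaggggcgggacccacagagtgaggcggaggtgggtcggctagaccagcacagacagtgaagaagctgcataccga
Sgk1: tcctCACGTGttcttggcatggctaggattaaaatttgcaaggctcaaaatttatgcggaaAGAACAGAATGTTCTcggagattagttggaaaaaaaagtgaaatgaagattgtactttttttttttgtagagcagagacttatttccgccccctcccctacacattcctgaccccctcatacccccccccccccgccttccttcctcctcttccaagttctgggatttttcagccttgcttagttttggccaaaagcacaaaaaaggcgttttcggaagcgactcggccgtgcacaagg
Hspa5: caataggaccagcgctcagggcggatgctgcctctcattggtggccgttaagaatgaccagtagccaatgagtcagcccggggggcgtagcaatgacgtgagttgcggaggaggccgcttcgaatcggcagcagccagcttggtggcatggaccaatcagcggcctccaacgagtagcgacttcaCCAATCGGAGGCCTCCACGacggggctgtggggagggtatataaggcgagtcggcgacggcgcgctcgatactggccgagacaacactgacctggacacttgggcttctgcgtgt

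Per1 had 1 E-box and Ciart had 3 in these windows. The Per1 window is 1 of 2 listed for that gene, and the other held none of the motifs sought. The Sgk1 window, which is 1 of 6 listed for that gene, held an E-box and a glucocorticoid response element. Of all genes tested that had a window, 2 had the glucocorticoid response element in one (0.0158%). Sgk1 was the 1 higher gene with it (0.357% of those with a window), so no other riser of the glucocorticoid list had it in a window. Hspa5 was the 1 higher gene with the endoplasmic reticulum stress element, which 21 of all genes had (0.166%). Among the 280 higher genes with a window, 43 had an E-box (15.4%), beside 6 of 102 lower genes (5.88%) and 1375 of 12683 genes in all (10.8%). The cAMP response element (TGACGTCA) was in a window of 3.57% of the higher genes, 6.86% of the lower and 3.26% of all. For the D-box (TTANGTAA) the shares were 1.79%, 0.98% and 1.95%, for the CArG box 2.14%, 0.98% and 1.59%, and for the Egr site (GCGTGGGCG) 1.43%, 1.96% and 1.3%. A match describes letters only.

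**Figure D1:**
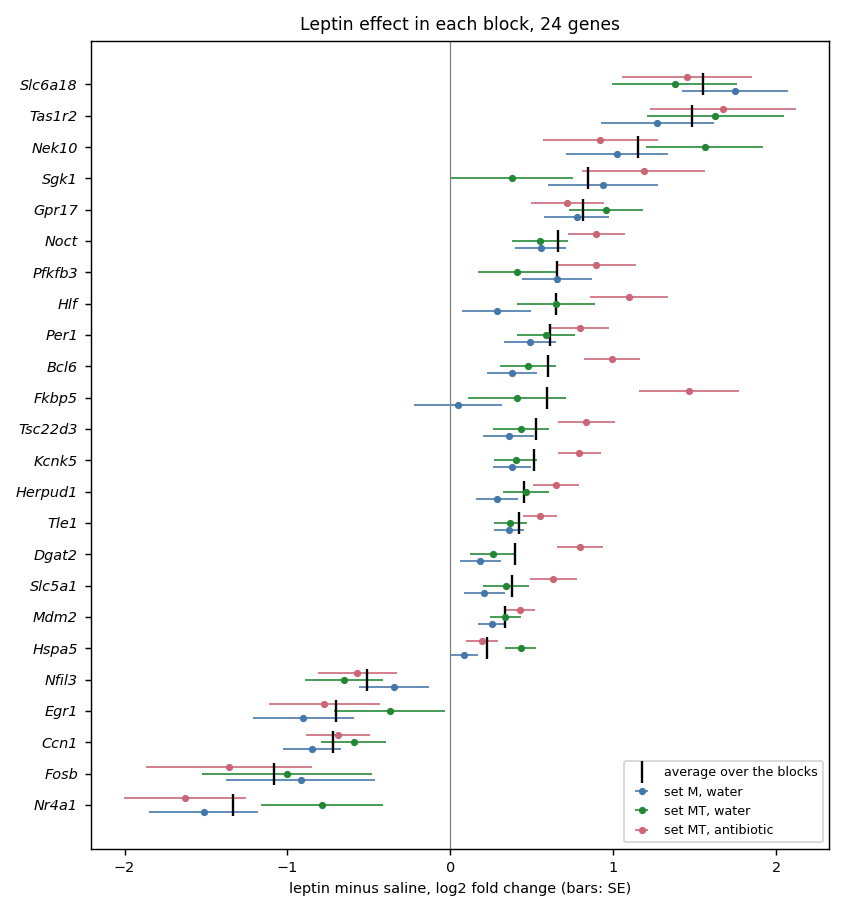
Log2 fold change of leptin against saline (x axis) for 24 genes (y axis), with 1 point per block, bars of 1 standard error and a tick for the average over the blocks. All points of the genes called higher lie to the right of 0 and all points of the genes called lower to the left, and Fkbp5, which was not called, has the widest spread between blocks, from 0.05 to 1.47.

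Of 23 glucocorticoid response genes, 8 rose (Bcl6, Cebpd, Ddit4, Hif3a, Klf9, Per1, Sgk1 and Tsc22d3) and 1 fell (Cebpb). The median log2 fold change of the list was 0.23, and 17 members were positive, whereas 7390 of all 16358 genes were. The block medians were 0.08 in set M (15 of 23 positive), 0.23 in set MT on water (20) and 0.52 on antibiotic (19). An unadjusted interaction p under 0.05 was found for 7 of the 23, beside 13.8% of all genes. Per1, the period gene that glucocorticoids and cAMP induce directly, had 25.1 to 86.3 CPM in the saline libraries (median 47.3) and 60.4 to 104 CPM with leptin (median 74.7). The ranges overlapped, but each of the 19 leptin libraries lay above the saline median of its own block. Counts of this kind, here and below, come from the libraries that gave the call, so they describe it and add no evidence. The share of all genes with such a count was not computed. Leptin raised Per1 by 0.61 on the log2 scale (SE 0.10, adjusted p = 0.000351 by edgeR), with 0.49, 0.59 and 0.79 in set M on water, set MT on water and set MT on antibiotic.

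Tsc22d3, the gene of the protein GILZ, an anti-inflammatory mediator of glucocorticoids, had 31.5 to 110 CPM with saline (median 49.6) and 44.5 to 115 CPM with leptin (median 79.1). All 19 leptin libraries again lay above the saline median of their block, and the highest saline value was that of Saline-water 10. The rise was 0.53 on the log2 scale (SE 0.10, adjusted p = 0.00195 by edgeR). In set MT on antibiotic the groups did not overlap, at 56.2 ± 3.86 CPM with saline and 100.1 ± 12.0 CPM with leptin (SD, n = 6 each), as was so for 1.6% of all genes in that block.

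Sgk1, the serum and glucocorticoid regulated kinase that raises sodium transport in epithelia, had the widest range of these genes. Saline libraries held 74.1 to 836 CPM (median 169.03) and leptin libraries 141 to 769 CPM (median 426). The highest value of all was that of Saline-water 10, and 19 of 19 leptin libraries lay above the saline median of their block. The log2 fold change was 0.84 (SE 0.21, adjusted p = 0.0191 by edgeR). Without the 6 libraries highest in pancreas RNA, a smaller set, the log2 fold change of Sgk1 was 0.68 (adjusted p = 0.111).

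Bcl6, a zinc-finger repressor, rose from 16.3 to 46.5 CPM with saline (median 21.2) to 23.3 to 45.8 CPM with leptin (median 35.6). The log2 change of Bcl6 was 0.60 (SE 0.10, adjusted p = 0.000801 by edgeR), and the block values were 0.38, 0.48 and 0.99. Smaller or less abundant risers of the list were Ddit4, an inhibitor of mTOR signalling (0.63), Hif3a (0.65), Cebpd (0.35) and Klf9 (0.21). Cebpb, a transcription factor of the same family as Cebpd, fell by 0.20 on the log2 scale (adjusted p = 0.0426 by edgeR).

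Fkbp5, whose protein binds the glucocorticoid receptor complex and which is a common marker of receptor activity, did not pass on average (log2 0.59, SE 0.19, adjusted p = 0.0816 by edgeR). Saline libraries held 28.6 to 153 CPM (median 68.0) and leptin libraries 48.4 to 220 CPM (median 111). The groups overlapped on water, with log2 values of 0.05 in set M and 0.41 in set MT. On antibiotic all 6 leptin libraries lay above all 6 saline libraries, as for 1.6% of all genes in that block, with a log2 value of 1.47. The difference between the blocks did not pass over all genes. Zbtb16 (0.23, adjusted p = 0.487) and Pdk4 (0.27, adjusted p = 0.340), also known targets of the receptor, did not pass either. Of 10 genes of the receptor and of steroid handling, Nr3c2, the mineralocorticoid receptor, rose (0.17, adjusted p = 0.00545 by edgeR). The receptor gene Nr3c1 had a log2 value of −0.01 (adjusted p = 0.946).

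**Figure D2:**
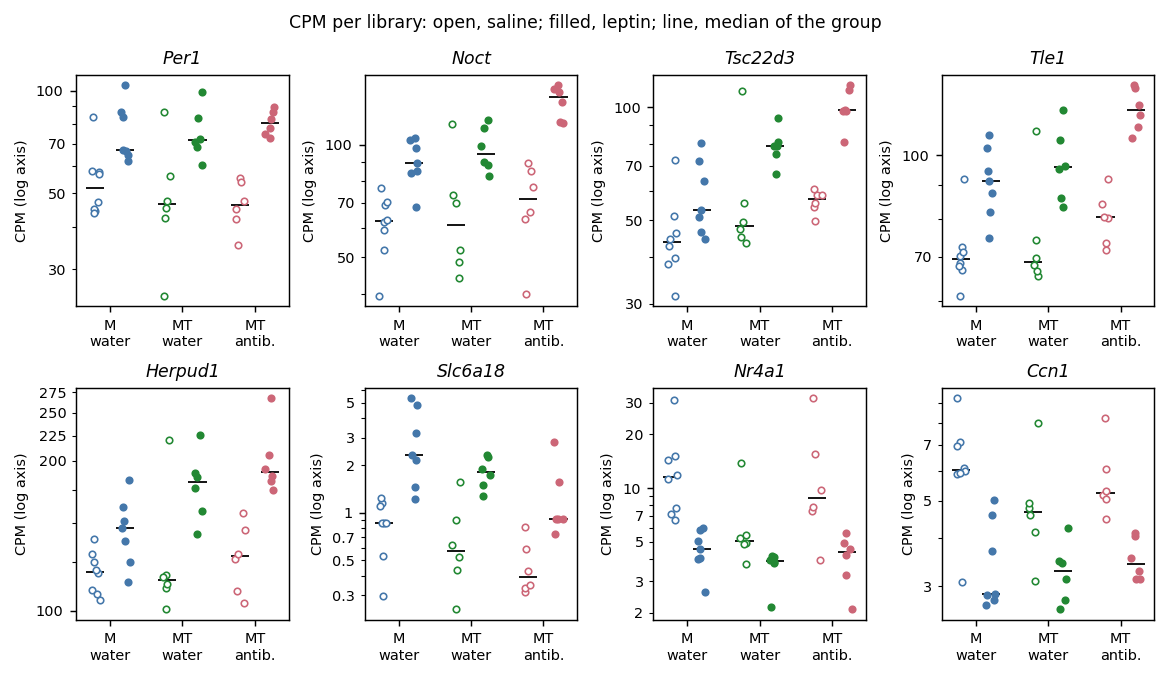
CPM in each library on a log axis for 8 genes, by block, with open circles for saline, filled circles for leptin and a line at the median of each group. In all 3 blocks the leptin median lies above the saline median for 6 genes and below it for Nr4a1 and Ccn1, and in set MT on water the highest open circle of Per1, Noct, Tsc22d3, Tle1, Herpud1 and Slc6a18 is Saline-water 10.

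Among 10 clock output factors, 5 rose (Ciart, Hlf, Noct, Tef and Usp2) and 1 fell (Nfil3), with a list median of 0.34. The block medians were 0.20 in set M, 0.30 in set MT on water and 0.56 on antibiotic. Noct, nocturnin, a phosphatase of NADP(H) with a daily rhythm known to affect fat absorption, had 39.5 to 114 CPM with saline (median 64.6) and 68.2 to 144 CPM with leptin (median 103). Every leptin library lay above the saline median of its block, and 13 of 19 above all saline libraries of the block. These were 6 of 7 in set M, 1 of 6 in set MT on water and 6 of 6 on antibiotic, where 1.6% of all genes had every leptin library above every saline library. The log2 fold change was 0.66 (SE 0.10, adjusted p = 0.000162 by edgeR), with block values of 0.55, 0.55 and 0.90.

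Hlf and Tef belong to the PAR-domain factors, which bind the D-box as activators, and Nfil3 is the repressor that competes for the same site. Hlf had 8.77 to 23.2 CPM with saline (median 14.4) and 8.18 to 49.0 CPM with leptin (median 21.5), so the ranges overlapped. Hlf rose by 0.65 (SE 0.14, adjusted p = 0.0063 by edgeR), and 15 of 19 leptin libraries lay above the saline median of their block. Tef rose by 0.31 (adjusted p = 0.0347), and it passed in 26 of the 39 fits that left out 1 library (highest adjusted p = 0.0707, without Leptin-water 12). Without the libraries highest in pancreas RNA it had 0.28 (adjusted p = 0.101).

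Nfil3 moved the other way, from 3.03 to 8.55 CPM with saline (median 5.33) to 1.99 to 5.59 CPM with leptin (median 3.98). The change was −0.51 (SE 0.13, adjusted p = 0.023 by edgeR), and 17 of 19 leptin libraries lay below the saline median of their block. Ciart, a repressor of CLOCK and BMAL1, rose by 0.52 (adjusted p = 0.0199), and the ubiquitin protease gene Usp2 by 0.39 (adjusted p = 0.00546). Dbp, another D-box factor, had a log2 value of 0.37 and did not pass (adjusted p = 0.194).

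In the core clock, 3 of 15 genes rose, namely Per1, Per2 (0.38, adjusted p = 0.0334) and the REV-ERB beta gene Nr1d2 (0.26, adjusted p = 0.00716 by edgeR). The list median was 0.06. Per2 passed in 28 of the 39 fits that left out 1 library (highest adjusted p = 0.0676, without Leptin-water 12), and had 0.35 without the libraries highest in pancreas RNA (adjusted p = 0.0894). Arntl, which encodes BMAL1, had a log2 value of −0.30 (adjusted p = 0.127), Clock 0.06 (0.414), Nr1d1 0.01 (0.975) and Cry1 0.12 (0.398).

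No immediate early gene rose and 4 of 24 fell (Nr4a1, Fosb, Ccn1 and Egr1), with a list median of −0.17. These genes are switched on within minutes by growth factors, nerve signals or stretch. Nr4a1, an orphan nuclear receptor, had 3.76 to 31.8 CPM with saline (median 7.79) and 2.10 to 5.95 CPM with leptin (median 4.11). Saline libraries varied widely, and all 19 leptin libraries lay below the saline median of their block. The log2 fold change was −1.33 (SE 0.21, adjusted p = 0.000303 by edgeR).

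Ccn1, a matricellular protein of the same response, had 3.08 to 9.26 CPM with saline (median 5.59) and 2.61 to 5.03 CPM with leptin (median 3.28). All leptin libraries were below the saline median of their block, and the change was −0.72 (SE 0.11, adjusted p = 0.000162 by edgeR). It had the same sign and an unadjusted p under 0.05 in each block, as did 0.575% of all genes.

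Egr1, a zinc-finger factor, had 9.95 to 62.0 CPM with saline (median 22.4) and 9.74 to 26.3 CPM with leptin (median 13.4). Fosb, a partner of JUN proteins, had 0.60 to 7.68 CPM with saline (median 3.43) and 0.72 to 4.79 CPM with leptin (median 1.29). Both groups overlapped in both genes. Egr1 changed by −0.70 (adjusted p = 0.0301 by edgeR) and Fosb by −1.08 (adjusted p = 0.023), and both calls were lost without Saline-water 14 (adjusted p = 0.0812 and 0.0509). Leptin libraries of Egr1 lay below the saline median of the block in 7 of 7 in set M and 5 of 6 on antibiotic, but in 2 of 6 in set MT on water, where Saline-water 14 had 53.04 CPM and the other saline libraries 9.95 to 16.8. Egr1 had −0.54 without the libraries highest in pancreas RNA (adjusted p = 0.149). Fos itself had a log2 value of 0.25, in the opposite direction, and did not pass (adjusted p = 0.131). Dusp5, a phosphatase that switches off ERK and is induced by it, fell by 0.36 on the log2 scale (adjusted p = 0.00637).

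Unfolded protein and integrated stress response genes gave 5 risers among 23 (Dnajb9, Edem1, Herpud1, Hspa5 and Sel1l) and none that fell, with a median of 0.09. The block medians were 0.02 in set M, 0.16 in set MT on water and 0.06 on antibiotic. At an unadjusted p under 0.05, 12 of the 23 genes were higher and 2 lower by edgeR, and DESeq2 and limma-voom also called none lower. Herpud1, which helps to clear misfolded proteins from the endoplasmic reticulum, had 101 to 220.3 CPM with saline (median 118) and 114 to 267 CPM with leptin (median 177). In 18 of 19 leptin libraries it lay above the saline median of the block, and the highest saline value was again that of Saline-water 10. It rose by 0.45 (SE 0.08, adjusted p = 0.00103 by edgeR).

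Hspa5, the chaperone BiP, had 392 to 601 CPM with saline (median 497) and 433 to 811 CPM with leptin (median 541). The change was 0.22 (SE 0.06, adjusted p = 0.0201 by edgeR), with block values of 0.08, 0.43 and 0.19. In set MT on water all 6 leptin libraries lay above all 6 saline libraries, as for 0.336% of genes there, and in the other blocks the groups overlapped. Hspa5 had 0.20 without the libraries highest in pancreas RNA (adjusted p = 0.0792). Dnajb9, a co-chaperone of Hspa5, rose by 0.40 (adjusted p = 0.00314), while Atf4 (0.06, adjusted p = 0.339) and Ddit3 (0.01, adjusted p = 0.977), transcription factors of the integrated stress branch, did not pass. In the cytosol, the heat shock genes Dnaja1 (0.26) and Chordc1 (0.19) rose, 2 of 15 in that list.

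Of 16 genes for sugar digestion and transport, 2 rose, with a list median of 0.13. The block medians were −0.0044 in set M (8 of 16 positive), 0.11 in set MT on water (12) and 0.41 on antibiotic (16). The block medians of the enterocyte markers were in the same order, at −0.0020, 0.09 and 0.28, and their part in the sugar, lipid and amino acid results was not tested. Slc5a1, the sodium-glucose cotransporter SGLT1 of the brush border, had 1637 to 2908 CPM with saline (median 2437) and 2208 to 4462 CPM with leptin (median 3045). The ranges overlapped, and 16 of 19 leptin libraries lay above the saline median of their block. The log2 fold change was 0.38 (SE 0.08, adjusted p = 0.00614 by edgeR). Slc2a2, the glucose carrier GLUT2, rose by 0.28 (adjusted p = 0.0326), and it passed in 24 of the 39 fits that left out 1 library (highest adjusted p = 0.0677, without Leptin-water 12). Without the libraries highest in pancreas RNA it had 0.22 (adjusted p = 0.112). The disaccharidases Sis (0.34, adjusted p = 0.0633) and Mgam (0.22, adjusted p = 0.0566) did not pass.

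Dgat2, which makes triglyceride for chylomicrons and stores, was the 1 gene of 25 in lipid absorption that rose. It had 181 to 367 CPM with saline (median 291) and 265 to 560.2 CPM with leptin (median 364). Dgat2 rose by 0.40 on the log2 scale (SE 0.09, adjusted p = 0.00733 by edgeR), and the block values were 0.18, 0.26 and 0.79. All 25 members had a positive average, with a median of 0.11, and the block medians were 0.01, 0.05 and 0.30. The list of fatty acid oxidation and PPAR-alpha target genes had 22 of 23 positive values (median 0.05). Its blocks went different ways, with a median of −0.09 in set M (3 of 23 positive), 0.13 in set MT on water (21) and 0.24 on antibiotic (23), and 10 of 23 had an unadjusted interaction p under 0.05 (13.8% of all genes). None passed by edgeR, with 5 higher at an unadjusted p under 0.05, and DESeq2 and limma-voom each called 1 higher.

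Further lists on nutrient handling gave few calls. In amino acid and peptide uptake 1 of 19 rose, the cystine transporter subunit Slc3a1 (0.24, adjusted p = 0.0289), which passed in 31 of the 39 fits that left out 1 library (highest adjusted p = 0.0578, without Leptin-water 10). Slc3a1 had 0.15 without the libraries highest in pancreas RNA (adjusted p = 0.176). The block medians of that list were 0.06, 0.09 and 0.29. In xenobiotic metabolism 2 of 26 rose, the nuclear receptor Nr1i2 (0.24) and the ligand-activated factor Ahr (0.12). Ahr passed in 26 of the 39 fits that left out 1 library (highest adjusted p = 0.0737, without Leptin-water 2). None of 12 iron and calcium uptake genes and none of 18 cholesterol synthesis genes passed by edgeR, DESeq2 or limma-voom, with 2 higher and 1 lower at an unadjusted p under 0.05 by edgeR. For leptin signalling in the duodenum only RNA levels were read, not the activity of the receptor. Of 17 genes of the leptin receptor and JAK-STAT feedback, none passed by the 3 tools, and 1 was higher and 3 lower at an unadjusted p under 0.05 by edgeR. Socs3, the feedback inhibitor that leptin induces in neurons, had a log2 value of −0.23 (adjusted p = 0.232), and Lepr −0.09 (adjusted p = 0.673).

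Cell-type lists had no called member by edgeR. Cell cycle genes had a median of −0.14 with 2 of 24 positive and 7 lower at an unadjusted p under 0.05, none passing by edgeR and 1 lower by DESeq2. Intestinal stem cell and Wnt genes had a median of −0.13, with 2 of 14 positive and 3 lower at an unadjusted p under 0.05. The enterocyte list had a median of 0.13, with 13 of 15 positive and 5 higher and 1 lower at an unadjusted p under 0.05, and DESeq2 called 1 in each direction. In set M 7 of the 15 enterocyte genes were positive. Lists of neighbouring tissue had medians that changed sign between blocks. The exocrine pancreas list had 3.53 in set M, 1.17 in set MT on water and −1.08 in set MT on antibiotic. In set MT on water Leptin-water 10 alone was high among leptin libraries, and the list mean per library was 0.74 with saline and 0.67 with leptin. The medians were, for the smooth muscle list, 0.38, −0.33 and −0.13 and, for the stomach and Brunner gland list, −0.61, 0.60 and −0.07. The part of neighbouring tissue in the leptin calls was not tested gene by gene. With the means of the pancreas, Brunner gland and muscle lists as covariates, 419 genes were higher and 193 lower, and 357 and 127 of the main calls were among these.

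**Figure D3:**
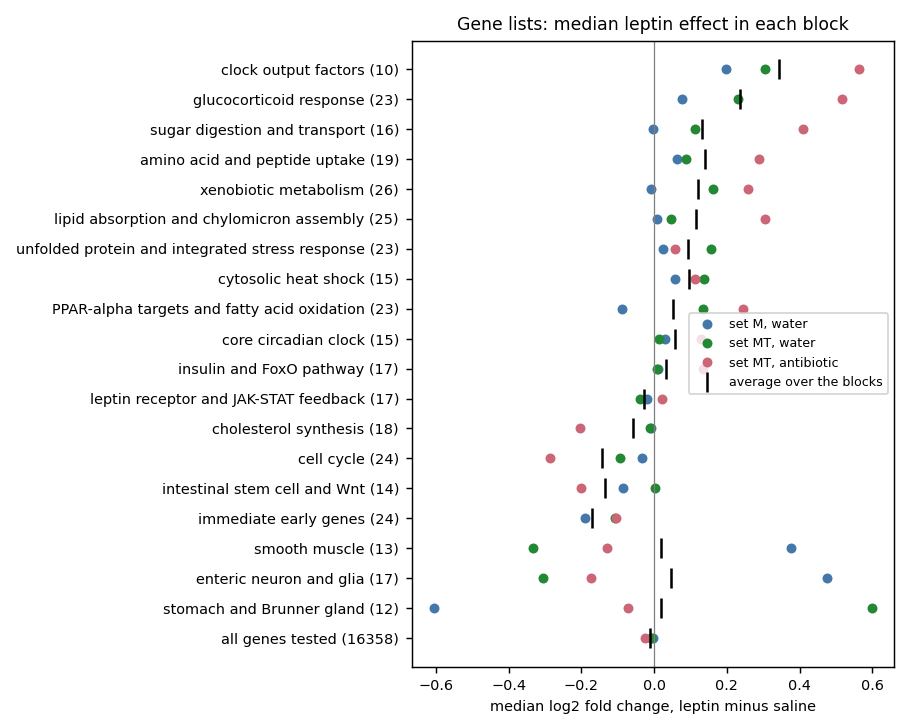
Median log2 fold change of leptin against saline (x axis) for 19 gene lists and for all genes tested (y axis, with the number of genes measured), with 1 point per block and a tick for the average over the blocks. Clock output and glucocorticoid response medians lie to the right of 0 in all 3 blocks, and the medians of smooth muscle, of enteric neuron and glia and of stomach and Brunner gland lie on both sides.

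Among genes outside these lists, Tle1, a Groucho family co-repressor, had one of the 2 lowest adjusted p-values. It had 61.0 to 109 CPM with saline (median 71.4) and 74.7 to 128 CPM with leptin (median 103). Each leptin library lay above the saline median of its block, and the change was 0.42 (SE 0.06, adjusted p = 5.77e-05 by edgeR). Block values were close, at 0.36, 0.37 and 0.55.

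Kcnk5, a potassium channel of epithelia, had 47.2 to 104 CPM with saline (median 64.6) and 70.6 to 134 CPM with leptin (median 89.1), a change of 0.51 (SE 0.08, adjusted p = 0.000162 by edgeR). Mdm2, the ubiquitin ligase that degrades p53, had 55.7 to 97.6 CPM with saline (median 69.8) and 70.4 to 114 CPM with leptin (median 88.2), a change of 0.33 (SE 0.05, adjusted p = 0.000201 by edgeR). In both genes all 19 leptin libraries lay above the saline median of their block. Mdm2 was the 1 gene of the 16 p53 targets listed that passed by edgeR, and Cdkn1a had 0.19 (adjusted p = 0.119). At an unadjusted p under 0.05, 3 of the 16 were higher and 3 lower by edgeR. DESeq2 and limma-voom each called 1 higher and 2 lower. Pmaip1 and Sesn1, which were not in that list, were called higher in each of the 39 fits that left out 1 library. Pfkfb3, a driver of glycolysis, rose by 0.65 (SE 0.14, adjusted p = 0.00456), Samd8, a sphingolipid enzyme gene, by 0.27 (adjusted p = 0.000351), the mitochondrial coactivator Ppargc1a by 0.26 (adjusted p = 0.0242), and the chromatin remodeller Chd2 by 0.28 (adjusted p = 0.00127).

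Lower genes outside the immediate early list included Nlrx1, a mitochondrial NOD-like receptor (−0.31, adjusted p = 0.000801), the transcriptional co-repressor Bcor (−0.21, adjusted p = 0.0038) and Rfx5, which drives MHC class II genes (−0.19, adjusted p = 0.00548 by edgeR). Nlrx1 was below the saline median of its block in 19 of 19 leptin libraries. The cysteine dioxygenase gene Cdo1 fell by 0.37 and the endothelial lipase gene Lipg by 0.42 on the log2 scale (adjusted p = 0.0136 and 0.0199).

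Several of the larger folds were those of sparse transcripts. The highest log2 fold change of a called gene was 2.19, for Rlbp1, which encodes a retinoid-binding protein and had a mean log2 CPM of −0.55 (adjusted p = 0.00103 by edgeR, a gene singled out after its values were seen). Slc6a18, an amino acid transporter best known from kidney (GRCm38 chromosome 13, 73661752 to 73678023, minus strand), had 0.25 to 1.58 CPM with saline (median 0.61) and 0.73 to 5.32 CPM with leptin (median 1.75). Slc6a18 rose by 1.55 on the log2 scale (SE 0.21, adjusted p = 5.77e-05 by edgeR), with 1.75, 1.38 and 1.45 in the 3 blocks. Tas1r2, a subunit of the sweet taste receptor (chromosome 4, 139653538 to 139670280, plus strand), had 0.19 to 2.20 CPM with saline (median 0.66) and 0.39 to 6.28 CPM with leptin (median 1.77). Every leptin library of both genes lay above the saline median of its block.

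Tas1r2 changed by 1.48 (SE 0.23, adjusted p = 0.000162 by edgeR). Nek10 and Gpr17 were less sparse. Nek10, a NIMA-related kinase gene (chromosome 14, 14803415 to 15012059, plus strand), rose from a median of 9.66 CPM with saline (3.95 to 29.6) to 24.6 CPM with leptin (13.1 to 46.4), a change of 1.15 (SE 0.20, adjusted p = 0.000801). For Gpr17, which encodes a receptor coupled to G proteins, the median went from 15.1 CPM (8.30 to 27.0) to 25.2 CPM (15.3 to 53.1), a change of 0.81 (SE 0.12, adjusted p = 0.000162).

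These 4 genes each lie within 10 kb downstream, on the same strand, of a gene with far more reads per length of exon. Slc6a18 lies 1722 bases after Slc6a19, Tas1r2 3848 bases after Aldh4a1, Nek10 3475 bases after Slc4a7 and Gpr17 9598 bases after Myo7b. The upstream neighbours had log2 fold changes of 0.16 (adjusted p = 0.195), 0.31 (0.0254), 0.20 (0.12) and 0.14 (0.0599). Reads that run past the end of a neighbour were not separated from reads of the gene itself.

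The 3 blocks were then compared. Of the 492 genes called, 491 had the same sign in all 3 blocks, beside 5103 of all 16358 (31.2%). Because a gene passes the average more easily when its blocks point one way, this share is a description. In 94 called genes, 74 higher and 20 lower, the sign was the same and the unadjusted p was under 0.05 in each block alone, and these were all such genes of the table (0.575%). Ccn1, Gpr17, Kcnk5, Mdm2, Noct, Pip5kl1, Sarm1, Slc6a18, Tas1r2 and Tle1 were the 10 with the lowest average p among them.

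The interaction of block and injection, tested directly, called no gene by edgeR (lowest adjusted p = 0.181). Before adjustment, 2259 genes (13.8%) had a p under 0.05. If no gene differed between blocks, the share would be about 0.05 on average. Genes measured in the same libraries are not independent, so the gap between these shares is not read as a result. DESeq2 called 39 genes (2427 before adjustment), whereas limma-voom called none (2339 before adjustment). Among the 492 genes of the average effect, 61 had an unadjusted interaction p under 0.05 (12.4%), close to the 13.8% of all genes. The average test favours genes whose blocks point one way, so nothing on agreement is read from this share. Pairwise differences were 0 by edgeR as well. At an unadjusted p under 0.05 there were 1492 genes between the water blocks, 2676 between set MT on antibiotic and set M, and 1524 between antibiotic and water in set MT. A test that misses the threshold does not show that the blocks respond alike.

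The lowest interaction p-values were those of Clmp, a junctional adhesion protein, Mblac2, Zkscan16 and Gap43, a growth cone protein of neurons, each with an adjusted p of 0.181. Clmp had 0.45 in set M, −0.30 in set MT on water and −0.17 in set MT on antibiotic, and Gap43 0.93, −0.29 and −0.23. Smooth muscle and enteric neuron and glia lists had the same order of signs, with medians of 0.38, −0.33 and −0.13 and of 0.48, −0.30 and −0.17. The part of muscle layer content in these genes was not tested. Mblac2 stood out in the antibiotic block, with −0.77 beside 0.11 and −0.04 on water.

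The size of the effect was largest in the antibiotic block for 295 of the 492 called genes, in set MT on water for 115 and in set M for 82. Over all genes the counts were 7767, 4507 and 4084. Median log2 values of the higher genes were 0.17, 0.20 and 0.30 in set M, set MT on water and set MT on antibiotic, and those of the lower genes −0.18, −0.23 and −0.25. Dgat2, Bcl6, Nr1i2 and Kcnk5 were among the genes with larger values on antibiotic, with unadjusted interaction p-values of 0.00588, 0.0277, 0.00702 and 0.0499, none of which passed after adjustment over all genes. Set and drink cannot be told apart between set M and the antibiotic block. In the antibiotic block the exocrine pancreas list had a mean of 2.62 log2 CPM with saline and 1.02 with leptin. The part of this difference in the size of the effects was not tested.

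**Figure D4:**
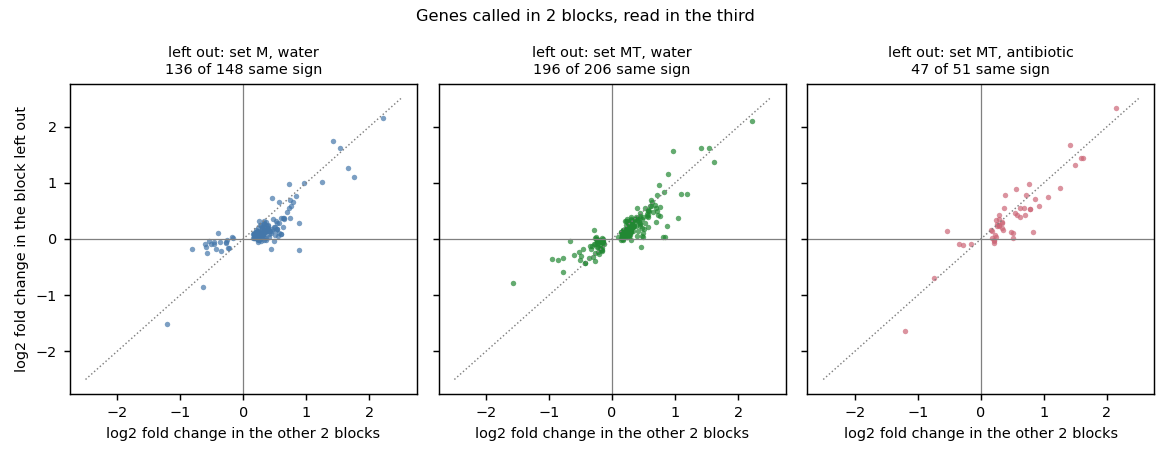
Log2 fold change in the block left out (y axis) against that in the other 2 blocks (x axis) for the genes called in those 2 blocks, 1 panel per block left out, with a dotted line of equality. Most points lie in the quadrants of equal sign (136 of 148, 196 of 206 and 47 of 51 genes), and many lie nearer to 0 in the block left out.

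Each block was also left out in turn, genes were called in the other 2, and their sign was read in the block that had no part in the call. Without set M, 148 genes were called (0.907%), and 136 had the same sign in set M (91.9%, exact 95% interval 86.3% to 95.7%). The interval covers counting error only and treats genes as independent. Genes measured in the same libraries are not independent, so its width is not read. Over all genes the share with the same sign was 51.1%. Without set MT on water, 206 genes were called (1.27%) and 196 kept their sign there (95.1%, beside 56.8% of all). Without the antibiotic block, 51 genes were called (0.313%) and 47 kept their sign there (92.2%, beside 56.4% of all).

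An unadjusted p under 0.05 in the left-out block was reached with the same sign by 60, 73 and 27 of these genes, and with the opposite sign by none. The shares were 40.5% in set M, 35.4% in set MT on water and 52.9% on antibiotic. Over all genes the same shares were 7.58%, 4.26% and 12.2%. After adjustment within the left-out block alone, 3 of the 51 genes passed on antibiotic and none in the other blocks. The higher genes were smaller where they had not been called. Their median log2 value was 0.34 in the 2 blocks and 0.14 in set M, 0.30 and 0.22 for set MT on water, and 0.51 and 0.40 for the antibiotic block. For lower genes the medians were −0.43 and −0.10, −0.24 and −0.13, and −0.44 and −0.10. Without the libraries highest in pancreas RNA, 182 of 268 genes (67.9%) kept their sign in set MT on water, beside 56.8% of all genes, 14 of 14 in set M and 31 of 33 on antibiotic.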

How the data were processed

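The authors deposited 1 table of raw read counts, with 16358 gene symbols by 39 libraries. Tools named in the submitters' processing notes are HISAT2, FastQC, featureCounts and edgeR 3.42.0, with build mm10. Per the labels' protocols, libraries kept strand and ribosomal RNA was depleted. The sources used here give neither the rule that filtered the genes nor whether counting used strand. Near-identical genes can share reads.

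Counts were fitted with edgeR 4.0.16 (R 4.3.3, limma 3.58.1) by the quasi-likelihood F test with TMM factors, on block (3 levels) and injection. filterByExpr kept all 16358 genes, and p was adjusted over them by the Benjamini-Hochberg method (threshold 0.05). Block effects, their interaction and pairwise differences came from a fit with 1 leptin effect per block. A standard error is the absolute log2 change divided by the root of F. Genes were also called in 2 blocks and read in the third, fitted alone. The code was tested on simulated counts. Alternatives included DESeq2 1.42.0, limma-voom, sva 3.50.0 and leaving out each library or block. In all, 105 genes had a 0 in some library.

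Named genes were called genes of a mean of 1 log2 CPM or more, not predicted (10 highest and 10 lowest by fold, 8 more in each direction by p), 10 by p among those passing in each block, 4 by interaction p, a fixed set and 3 of each of 45 lists, of which 1 gene is not reported here. The 24 genes shown by library and the genes downstream of others were chosen after their values were seen. Members, lists and alternatives were chosen with earlier results of these data known. Positions are from GENCODE vM21 on GRCm38 (97.8% of symbols matched) and promoter windows from RefSeq.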

Additional observations from a re-analysis of the deposited data

Results flagged for a closer look

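In 17 of 174 groups of libraries tested (9.77%), 1 library lay apart from the others of its block and injection by Dixon's test, where chance gives about 1 in 20. Saline-water 10 had 110 CPM of Tsc22d3 (others 43.4 to 55.7), 109 of Tle1 (65.4 to 74.1) and 220.3 of Herpud1 (101 to 118), each on the side of the leptin libraries. Saline-water 5 had 83.7 CPM of Per1 (others 43.9 to 58.1), 92.0 of Tle1 (61.0 to 72.4) and 3.08 of Ccn1 (5.87 to 9.26), also on the side of leptin. Its mean over the stomach and Brunner gland list was 4.70 log2 CPM (others 6.48 to 7.67). The exocrine pancreas list had a mean of −1.19 in Saline-water 10 and −1.42 in Saline-water 5.

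In Saline-water 14, Nr4a1 had 13.7 CPM (others 3.76 to 5.45) and Egr1 53.04 (9.95 to 16.8), away from leptin, and the mean of the exocrine pancreas list there was 3.46 log2 CPM. Dgat2 had 215 CPM in Saline-water 1 (others 277 to 335), and Nek10 29.6 in Saline-antibiotic 6 (9.06 to 9.61). In Leptin-water 10, Nr4a1 had 2.15 CPM (others 3.82 to 4.17) and the exocrine pancreas list a mean of 5.35 log2 CPM (−0.96 to 0.69). Saline-water 4 had 2.26 for that list (others −1.42 to 0.25). Leptin-water 7 had 2.69 for the stomach and Brunner gland list (others 5.11 to 6.80). Total counts were 30207536 in Saline-antibiotic 4 (others 41723957 to 49511953) and 67870777 in Leptin-antibiotic 3 (45839800 to 52330301).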

How the results depend on the processing

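All 492 genes called on average kept their sign under the 16 alternatives and in the 39 fits that left out 1 library. This counts the genes tested in each fit (436 where the mean had to reach 1 log2 CPM). These fits reuse libraries that gave the calls, and 491 called genes already pointed one way in every block. A change of sign was thus unlikely from the start, so the kept signs describe the calls and add no evidence. The counts moved more than the signs. DESeq2 gave 497 higher and 201 lower genes and 39 for the interaction, limma-voom 478, 184 and 0, and 2 surrogate variables 341, 134 and 1. Leaving out the libraries highest in pancreas RNA gave 201 and 94, no block term 195 and 54, and set in place of block 300 and 97. Leaving out a whole block leaves fewer samples. It gave 127 and 21 without set M, 153 and 53 without set MT on water, and 45 and 6 without the antibiotic block. Without 1 library, higher genes numbered 268 (without Leptin-water 7) to 503 (without Saline-water 10), lower genes 89 (without Saline-antibiotic 5) to 239 (without Saline-water 10), and interaction genes 0 to 2 (without Leptin-water 6). The share of genes with the same sign in the block left out was 100% in set M (14 genes) and 67.9% in set MT on water (182 of 268) without the libraries highest in pancreas RNA, and 89.8% in set MT on water with limma-voom. The cause of these moves was not tested. Upper quartile factors (332 and 147), a floor on the mean level (341 and 140), leaving out Rn45s (347 and 141), the 3 tissue means as covariates (419 and 193) and equal weight of the blocks (463 and 188) stayed within 1.5 times. With no filter the same 16358 genes were tested. The median over all genes stayed between −0.02 and −0.01. With the replicate number of the labels as a block, 242 genes were higher and 49 lower. The numbers do not pair the libraries, since 5 of 18 same-numbered pairs correlated above 0.1 (r = −0.35 to 0.70) and in 1 pair each library correlated best with its partner. Of the 61 named genes that were called, 53 were called in each fit without 1 library, and the 8 others were Ahr and Irf9 (adjusted p up to 0.0737 and 0.0781 without Leptin-water 2) and Egr1, Fosb, Per2, Slc2a2, Slc3a1 and Tef. The number no longer past the threshold was 17 without the libraries highest in pancreas RNA and 6 with limma-voom. It was 13 with no block term and 6 with the replicate number as a block. Without a whole block it was 30 without set M, 18 without set MT on water and 42 without the antibiotic block. Depth limits sparse genes such as Slc6a18 (median 0.606 CPM with saline and 1.75 with leptin) most. Among the 122 named genes that were not called, 48 of 1935 values, from 29 genes, had the opposite sign, none past the threshold. These log2 values were as follows. Without the antibiotic block they were Alox5 −0.047, Apoa4 −0.11, Cwh43 0.13, Mblac2 0.039, Ms4a1 0.23, Nr1d1 −0.049, Pyy −0.060 and Zbtb16 −0.012. With limma-voom they were Apoa4 −0.024, Cd3d −0.0069, Cpa1 −2.11, Nr1d1 −0.0028, Pyy −0.030, Reg3b 0.22 and Reg3g 0.047. Without the libraries highest in pancreas RNA they were Apoa4 −0.11, Cd3d −0.025, Cidec −0.0076, Cwh43 0.38, Nr1d1 −0.019, Pyy −0.090 and Smtn 0.027. Without set M they were Cald1 −0.16, Cck 0.074, Cd79b 0.059, Chgb 0.10, Clmp −0.23, Cwh43 0.66, Gap43 −0.25, Gcg 0.24, Kit −0.079, Lyz1 0.036, Plin4 −0.074, Sdc1 0.0085, Synpo2 −0.24 and Zkscan16 −0.32. Without set MT on water they were Cblif −0.036, Cd3e 0.030 and Smtn 0.00076. With the replicate block they were Cck 0.0072 and Cpa1 −0.71. With equal weight they were Clmp −0.0065 and Cwh43 0.064. With the tissue covariates they were Cpa1 −0.18 and Cwh43 0.065. With 2 surrogate variables they were Cpa1 −0.11 and Cwh43 0.17. With no block term it was Nr1d1 −0.011.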

Other observations

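Sparse genes that rose with leptin often lay just downstream of a gene with many reads. The definition was set after values were seen. It takes a gene with a mean log2 CPM under 3 whose nearest upstream neighbour on the same strand ends within 10 kb and has at least 8 times as many reads per length of exon. Among higher genes at that level, 24 of 65 met it (36.9%), beside 2 of 53 lower genes (3.77%) and 459 of 6129 sparse genes in all (7.49%). Read the other way, 5.23% of the 459 genes were called higher, and 0.723% of the 5670 other sparse genes. The median log2 fold change of the 459 genes was 0.00 and that of the others −0.04. At a mean log2 CPM of 3 or more, 6 of 291 higher genes met the definition (2.06%), beside 129 of 9792 in all (1.32%).

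Examples beside those of the report were Krt12, an epithelial keratin gene of the cornea, 6144 bases after Krt20 (log2 0.71, neighbour 0.12), Hsf5, a heat shock factor gene known from testis, 862 bases after Mtmr4 (0.74, neighbour 0.10), and Adam2, a sperm surface gene, 6641 bases after Ephx2 (1.00, neighbour 0.15). Pip5kl1 lay 1218 bases after Dpm2 (1.57, neighbour 0.02). Which transcript the reads of these genes came from was not tested.

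The interferon-stimulated list had 16 of 18 positive values with a median of 0.17, and its block medians were 0.25 in set M, −0.08 in set MT on water and 0.34 on antibiotic. Irf9, a subunit of the interferon response factor, was its 1 called member (0.16, adjusted p = 0.0374 by edgeR), and it passed in 20 of the 39 fits that left out 1 library (adjusted p = 0.0781 without Leptin-water 2). Reg3b and Reg3g, antimicrobial lectins of the epithelium, had log2 values of −1.61 (adjusted p = 0.275) and −1.13 (adjusted p = 0.355). These averages rest on few libraries. Leaving out 1 library gave −2.24 to −0.54 for Reg3b and −1.63 to −0.30 for Reg3g (nearest 0 without Saline-water 9), and limma-voom gave 0.22 and 0.05. For Reg3b 11 of 19 leptin libraries lay above the saline median of their block, so no direction is read.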
